A study of Mus musculus with 24 samples.

Results

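The comparison described here asks where the brain RNA response to loss of the glutamate transporter EAAT2 (gene Slc1a2) in the neuronal line differed from that in the astrocytic line. For every gene, the log2 change in the syn line (Cre-positive minus Cre-negative) was set against the log2 change in the gfap line, and the quantity reported is the syn change minus the gfap change. A positive difference means a higher change in the syn line, and a difference of 0 means equal changes. The 24 libraries of the series enter this contrast, all 24 that there are, and 19726 genes were measured well enough to be tested.

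Each library holds RNA from the brain of a mouse, and the 4 groups have 6 mice each. In the syn arm, Cre-positive mice are labelled syn-Cre+ with the EAAT2 genotype −/−, and their controls syn-Cre− with EAAT2 +/+. In the gfap arm, Cre-positive mice are labelled gfapCre+ with EAAT2 Δ/+, and their controls gfap-Cre− with EAAT2 +/+. Syn stands for the neuronal Cre line and gfap for the astrocytic one. No treatment, time or age is named in the labels. The Cre-positive groups differ in the allele state written for EAAT2 as well as in the Cre line, so cell type, allele state and line cannot be told apart in this contrast.

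EAAT2 clears glutamate from the space around synapses by carrying it into cells together with sodium. Astrocytes hold most of it, and a smaller amount sits on neuronal terminals. Glutamate taken up by astrocytes is turned into glutamine by glutamine synthetase and handed back to neurons. Cre recombinase cuts out DNA lying between its target sites in the cells where its promoter is active, and Cre lines also carry the transgene itself, at a place in the genome that differs from line to line. A contrast of changes removes any constant difference between lines on the log scale, since each line has its own Cre-negative controls.

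The gene totals ran from 41596313 to 69652824 counts per library. The share of reads outside genes did not overlap between the lines, at 7.52 to 11.1% (syn) and 4.47 to 6.37% (gfap). Ttr, the transthyretin gene that is high in choroid plexus, exceeded 1000 CPM (a gene's count relative to the TMM-scaled size of its library) in 3 syn Cre-positive and 3 syn Cre-negative libraries, called Ttr-high below, and reached 223.6 CPM at most in the gfap libraries. Syn Cre-negative library 5 stood apart in ribosomal RNA, with 26170 CPM of CT010467.1 where the next highest, syn Cre-negative library 6, had 3721 CPM and the other 22 at most 1904 CPM. Syn Cre-negative library 2 stood apart in glucocorticoid-induced genes, syn Cre-positive library 5 in thalamic genes and gfap Cre-negative library 4 in Slc1a2. Markers of the labelled tissue were present in all groups: the 20 astrocyte markers summed to between 8283 and 9947 CPM per library and the 12 neuron markers to between 8219 and 10650 CPM. In whole tissue, fewer cells of a type and less RNA per cell cannot be told apart.

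Slc1a2 itself was not called between the arms. The lowest, median and highest syn Cre-positive libraries held 2616, 3031 and 3235 CPM, against 3227, 3292 and 3461 CPM in the syn Cre-negative libraries. In the gfap arm the corresponding values were 3043, 3549 and 3855 CPM in Cre-positive and 2494, 3636 and 3980 CPM in Cre-negative libraries. The groups of each arm overlapped, although in the syn arm the overlap came from 1 Cre-positive library. The difference between the arms was −0.13 on the log2 scale (SE 0.11, 95% interval −0.35 to 0.10, edgeR adjusted p = 1.00), and −0.04 without gfap Cre-negative library 4. The counts sum the whole gene, so they need not show a deleted exon, and the directions below are those between libraries with these labels. Of the 90 genes tested in the 10 Mb on either side of it, 0 were called and 2 had an unadjusted p under 0.05, both lower (2.22% of them, against 3.50% of all genes).

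The arms differed in 2 genes, 0.0101% of the 19726 tested. Prm1 rose and Prickle2 fell in the gfap arm, and the syn changes of both lay within their errors of 0. The gene next in order of p, the astrocyte water channel Aqp4, was higher in the syn Cre-positive group. It did not pass in the main test (edgeR adjusted p = 0.109) and passed with DESeq2 (0.00348) and limma-voom (0.0064). The fourth smallest adjusted p was 0.903, that of 4930594M22Rik, an RNA gene with no assigned protein and a mean of 0.533 CPM. Its log2 change was −0.90 (SE 0.28) in the syn arm and 0.85 (SE 0.30) in the gfap arm, a difference of −1.74 (SE 0.41, 95% interval −2.57 to −0.91).

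**Figure D1:**
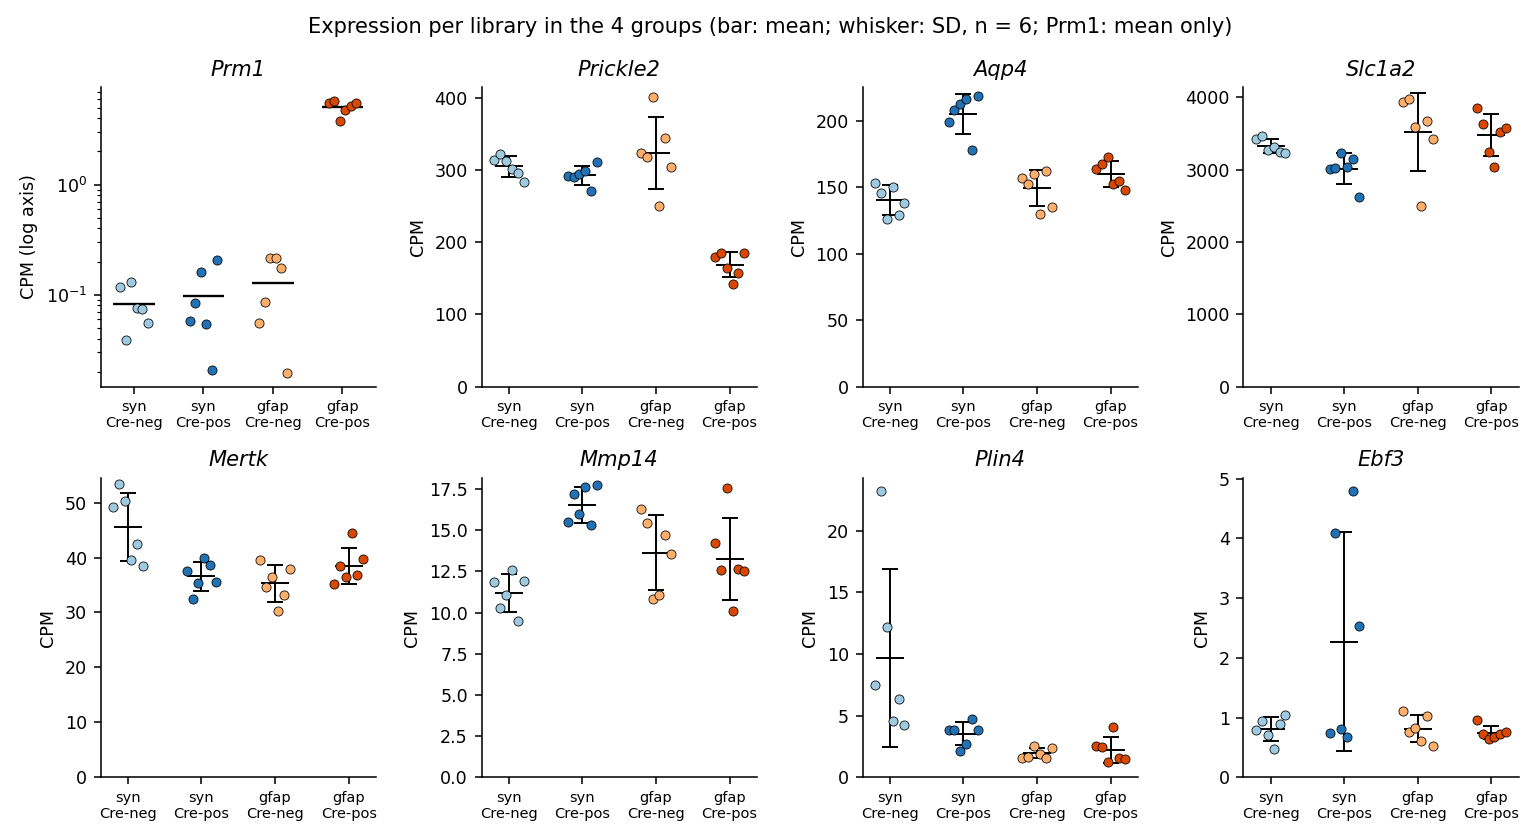
CPM in each of the 24 libraries for 8 genes, by group, on linear axes from 0 except for Prm1, which has a log axis. Points are libraries, bars are group means and whiskers are SD (n = 6; mean only for Prm1). Prm1 lies between 3.81 and 5.76 CPM in the gfap Cre-positive libraries and at or below 0.217 CPM elsewhere, Prickle2 is at most 185.0 CPM there and at least 249.9 CPM elsewhere, and Aqp4 is at least 178.0 CPM in the syn Cre-positive libraries and at most 172.9 CPM elsewhere.

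Prm1 (ENSMUSG00000022501, GRCm38/mm10 chromosome 16, 10796326 to 10805839) encodes protamine 1, a small arginine-rich protein that packs DNA in sperm heads. The 6 gfap Cre-positive libraries had a lowest, median and highest value of 3.81, 5.34 and 5.76 CPM, which are 201 to 293 counts. The gfap Cre-negative libraries had 0.0195, 0.131 and 0.217 CPM, or 1 to 14 counts. The syn Cre-positive libraries had 0.0209, 0.0709 and 0.208 CPM, and the syn Cre-negative libraries 0.0386, 0.0754 and 0.130 CPM. All 6 gfap Cre-positive libraries were thus far above the other 18, which overlapped with each other. Prm1 rose 38.8-fold in the gfap arm (log2 fold change 5.28, SE 0.32, edgeR adjusted p = 5.3e-12), and its log2 change in the syn arm was 0.24 (SE 0.47, adjusted p = 1.00). The difference between the arms was −5.04 (SE 0.61, 95% interval −6.29 to −3.79, edgeR adjusted p = 5.7e-05). It passed the filter on low counts through the gfap Cre-positive group alone.

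Other genes of the sperm program had few counts in any group. Of 14 genes for sperm chromatin, sperm tail and spermatid proteins, 3 had enough counts to be tested, and Prm1 was the 1 that passed. Prm2, the partner protamine, had 17 counts in all 24 libraries together, of which 4 were in the gfap Cre-positive group. Tnp2, a transition protein that precedes protamines on DNA, had 20 counts, 3 of them in that group, and Tnp1 was at 0 in every library. Prm1 summed to 1518 counts in the gfap Cre-positive group and to 30, 25 and 42 in the syn Cre-positive, syn Cre-negative and gfap Cre-negative groups. The other tested members were close to equal between the arms relative to their errors: the germ cell gene Gsg1 at 0.14 (SE 0.49) and the spermatid kinase gene Tssk6 at −0.13 (SE 0.56). The 5 protein-coding genes nearest to Prm1 that were tested did not pass either. Socs1, a suppressor of cytokine signalling, lies 10790 bases away and had a difference of 0.96 (SE 0.53, unadjusted p = 0.0814) at a mean of 0.329 CPM, the opposite sign to Prm1. Dexi (−0.05), Clec16a (0.02), Litaf (0.21) and Snn (0.05) had unadjusted p between 0.137 and 0.760. Litaf was 0.114 without the Ttr-high libraries.

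Prickle2 (ENSMUSG00000030020, GRCm38/mm10 chromosome 6, 92370908 to 92706155) encodes a LIM-domain protein of planar cell polarity, the system that orients cells within a sheet, and is also found at synapses. The gfap Cre-positive libraries had a lowest, median and highest value of 142.3, 171.7 and 185.0 CPM. The gfap Cre-negative libraries had 249.9, 320.6 and 401.4 CPM. The syn Cre-positive libraries had 270.7, 292.6 and 310.3 CPM, and the syn Cre-negative libraries 283.0, 306.7 and 322.1 CPM. Each gfap Cre-positive library lay below each of the other 18, and the other 3 groups overlapped. Prickle2 fell in the gfap arm to 0.522 of its Cre-negative level (log2 fold change −0.94, SE 0.08, edgeR adjusted p = 7.8e-09), and its log2 change in the syn arm was −0.06 (SE 0.08, adjusted p = 1.00). Between the arms Prickle2 differed by 0.88 on the log2 scale (SE 0.11, 95% interval 0.66 to 1.10), a ratio of 1.84 between the fold changes, at an edgeR adjusted p = 5.7e-05.

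Prickle2 was the 1 called gene among 17 tested members of a planar cell polarity list of 19 genes, and the other 16 had unadjusted p of 0.05 or more. Their signs were split, with 8 of the 17 positive, and the list's median difference was −0.01 beside 0.00 over all genes. Vangl2, a core membrane protein of the pathway, had a difference of 0.19 (SE 0.13), and the atypical cadherin gene Celsr2 0.17 (SE 0.11). Of the tested protein-coding genes on either side of Prickle2, Mrps25 (−0.05), Rbsn (−0.08) and Adamts9 (0.15) had unadjusted p between 0.290 and 0.567. Adamts9 was 0.0126 without the Ttr-high libraries and 0.24 without gfap Cre-negative library 4. Trh, the thyrotropin-releasing hormone gene 126258 bases away, had a difference of 2.60 (SE 0.99, unadjusted p = 0.015) at a mean of 0.553 CPM, which was 1.27 without gfap Cre-negative library 4. The highest Trh values were 2.64 CPM in that library and 2.36 CPM in a syn Cre-positive library.

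The stretches just before a RefSeq start of both called genes are shown because they differ in type. Each is 250 bases long, from the RefSeq annotation of GRCm38.p6, on the minus strand and read 5′ to 3′. Capitals mark CG pairs and any TATAA, searched as TATAA on both strands. The window of Prm1 is chr16:10796824-10797073 and that of the start of Prickle2 nearest its 5′ end is chr6:92706185-92706434. GENCODE M21 places the Prm1 starts elsewhere: of its 2 transcripts, the short one begins 63 bases upstream of the RefSeq start, inside the window, and the long one 9016 bases upstream of it, outside the window.
Prm1: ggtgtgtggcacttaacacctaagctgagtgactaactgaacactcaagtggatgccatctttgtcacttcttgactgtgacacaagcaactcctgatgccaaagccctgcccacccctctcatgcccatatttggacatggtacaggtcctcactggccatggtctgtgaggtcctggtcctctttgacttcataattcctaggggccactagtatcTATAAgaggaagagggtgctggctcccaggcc
Prickle2: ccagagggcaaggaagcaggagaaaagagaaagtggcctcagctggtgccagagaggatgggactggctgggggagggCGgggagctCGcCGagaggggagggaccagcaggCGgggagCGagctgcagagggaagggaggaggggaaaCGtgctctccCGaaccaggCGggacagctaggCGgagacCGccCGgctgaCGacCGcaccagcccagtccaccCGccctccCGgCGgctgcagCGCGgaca
The Prm1 window held 1 TATAA on the gene's strand and 0 CG pairs, and the Prickle2 window 18 CG pairs and no TATAA. Of 32851 such windows, 22.8% held TATAA, 7.87% held no CG pair and 21.7% held 18 or more, and the median was 6 CG pairs. The other 3 annotated Prickle2 starts had 4 or 5 CG pairs. The deposited values are sums over a gene, so they do not show from which start the counted RNA came. Nor do they show whether RNA counted for a gene came from its own place in the genome, which was not tested. The Prm1 gene model also overlaps a pseudogene on the opposite strand, Gm10343, which had 265 counts in all libraries and a difference of 1.00 (SE 0.52), the opposite sign to Prm1.

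Aqp4 (ENSMUSG00000024411, chromosome 18, 15389496 to 15410982) encodes the water channel that is concentrated in astrocyte endfeet around vessels. The syn Cre-positive libraries had a lowest, median and highest value of 178.0, 210.2 and 218.4 CPM, and the syn Cre-negative libraries 126.2, 141.7 and 152.9 CPM. The gfap Cre-positive libraries had 147.8, 159.1 and 172.9 CPM, and the gfap Cre-negative libraries 129.8, 154.5 and 162.2 CPM. The syn groups did not overlap, while the gfap groups did, and all 6 syn Cre-positive libraries were above the other 18. Aqp4 rose in the syn arm (log2 fold change 0.55, SE 0.06, edgeR adjusted p = 2.0e-05), and its change in the gfap arm was 0.10 (SE 0.06, adjusted p = 1.00). The difference between the arms was 0.45 (SE 0.09, 95% interval 0.27 to 0.63). Its edgeR adjusted p of 0.109 became 0.0195 without syn Cre-positive library 5, the lowest of its group, and 0.011 without gfap Cre-negative library 4. It was 0.724 without the 6 Ttr-high syn libraries, at a difference of 0.47.

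Other genes of the astrocyte endfoot had values on both sides of 0. Of 11 endfoot genes tested, 3 had an unadjusted p under 0.05 with a higher value in the syn arm, against 1.82% of all genes. Aqp4 itself is counted among these 3. There was 1 with a lower value, against 1.68%. None of the 11 passed over all genes. The list's median difference was 0.03. Kcnj10, which encodes the potassium channel Kir4.1 that sits beside Aqp4, had a difference of 0.23 (SE 0.11). Gjb6, the gene of the astrocyte gap junction protein connexin 30, had one of −0.42 (SE 0.16), so 2 channel genes of the same membrane had opposite signs. The Gjb6 difference was −0.31 without syn Cre-negative library 2 and −0.59 without the Ttr-high libraries. The list of 20 astrocyte markers shares members with the endfoot list, Aqp4 and Gjb6 among them, so the counts of the lists are not separate. Among these 20, 3 were higher and 1 lower at an unadjusted p under 0.05, beside the same shares of all genes. In all, 9 were positive and the median was −0.03. Ednrb, the endothelin B receptor, was among the higher ones at 0.37 (SE 0.09, 95% interval 0.18 to 0.56, edgeR adjusted p = 1.00).

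Markers of reactive astrocytes, which appear after injury or inflammation, had mostly negative differences. Of 13 tested, 4 were positive, where 50.3% of all genes were. At an unadjusted p under 0.05, 0 were higher (1.82% of all genes were) and 2 lower (1.68%). Lcn2, the lipocalin gene released by strongly activated astrocytes, had a difference of −2.76 (SE 0.98) at a mean of 0.44 CPM, with 0 to 9 counts in the gfap Cre-negative libraries. Its syn medians were 0.290 CPM (Cre-positive) and 0.298 CPM (Cre-negative), and the highest syn Cre-negative library held 3.40 CPM. The Lcn2 difference was −1.97 without syn Cre-negative library 3 and −3.10 without syn Cre-positive library 6. Osmr, the oncostatin M receptor, had one of −0.48 (SE 0.19), which was −0.75 without the Ttr-high libraries and −0.30 without syn Cre-negative libraries 2 and 5, gfap Cre-negative library 4 and syn Cre-positive library 5. Neither passed over all genes (edgeR adjusted p = 1.00 for each). The median of −0.16 lay between −0.56 and −0.02 over the alternatives, with the lower value without the 6 Ttr-high syn libraries and the upper one with a filter of 1 CPM in 6 libraries.

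The glutamate system showed no member with an unadjusted p under 0.05. Of the 6 transporter genes of the Slc1 family, the widest intervals belonged to the rare ones. Slc1a3, the other astrocyte transporter (GLAST), had a difference of −0.11 (SE 0.07), the neuronal transporter gene Slc1a1 one of −0.01 (SE 0.06) and the Purkinje cell transporter gene Slc1a6 one of 0.25 (SE 0.15). The neutral amino acid carriers Slc1a4 and Slc1a5 stood at 0.12 (SE 0.07) and −0.32 (SE 0.29). Slc1a5 was −0.76 without the Ttr-high libraries and −0.17 without syn Cre-negative library 2. Glul, the glutamine synthetase gene, had the smallest p among 16 genes of the glutamate-glutamine cycle, with a difference of −0.16 (SE 0.08, unadjusted p = 0.0561). The 15 genes for AMPA, NMDA and kainate receptor subunits lay between −0.03 and 0.19 with a median of 0.00. The 7 metabotropic receptor genes lay between −0.10 and 0.14, and the 14 GABA receptor genes between −0.09 and 0.15. The 6 sodium pump genes, whose product supplies the gradient that drives glutamate uptake, lay between −0.04 and 0.11. Of the 64 tested genes of these lists, 62 had a 95% interval that did not reach a difference of the size seen in Prickle2 in either direction, and Slc1a5 and the vesicular transporter gene Slc17a6 had wider ones.

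**Figure D2:**
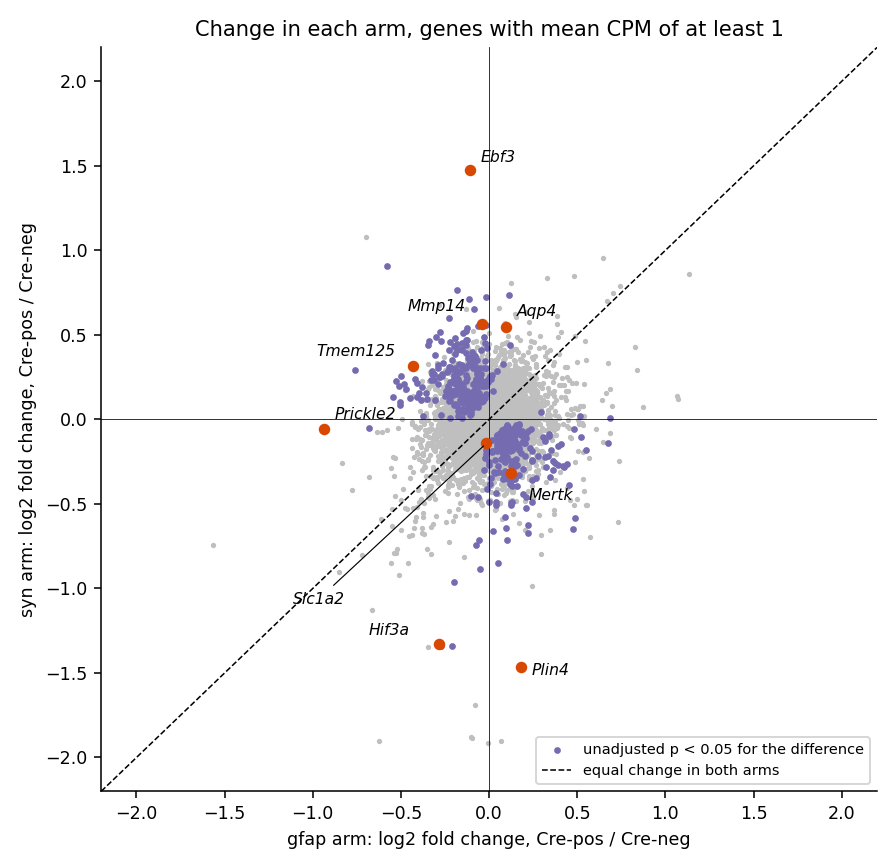
Log2 fold change in the gfap arm (x axis) against that in the syn arm (y axis) for 14887 genes with a mean of at least 1 CPM, of which 5 lie outside the axes. The dashed line marks equal changes, purple points have an unadjusted p under 0.05 for the difference, and named genes are in orange. Prickle2 lies on the left at −0.94 on the x axis and near 0 on the y axis, and Aqp4 above the line at 0.55 on the y axis.

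Below the called genes, the unadjusted p values did not pile up at the low end. An unadjusted p under 0.05 was found in 691 genes, 3.50% of those tested, where 986.3 would fall in each of 20 equal bins. Of these, 359 were higher in the syn arm (1.82%) and 332 lower (1.68%), and 223 of the 691 were predicted genes or pseudogenes. In 647 of them (93.6%) the arms had opposite signs, against 49.4% of all genes. A difference of changes selects such genes, so the share is a description of the list. In 417 (60.3%) the syn change was the larger in size, against 50.5% of all genes. The group mean farthest from the other 3 was the syn Cre-negative group in 245 (35.5%, against 28.7% of all genes), the group that holds 2 of the libraries that stand apart. A change in both arms at an unadjusted p under 0.05 was found in 45 genes, of which 37 had the same direction and 8 opposite directions.

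The precision of the contrast depended on expression level. The median SE of the difference was 0.148 over all genes, where each arm alone had a median SE of 0.105. For 7649 genes at a mean of 10 to 100 CPM the median SE was 0.0969, and for 99.5% of them the 95% interval lay within 1 log2 unit of 0. For 2283 genes at 100 CPM or more, 98.2% of intervals lay within 0.5 of 0. For 4839 genes under 1 CPM the median SE was 0.505, and 18.3% of intervals lay within 1. Over all genes, 77.1% of intervals lay within 1 and 56.7% within 0.5. For 4955 genes at 1 to 10 CPM, 89.5% of intervals lay within 1. A difference of 1 log2 unit in either direction thus lay outside the interval for most genes above 1 CPM. This did not hold for most genes under 1 CPM. These shares do not say how often a true doubling in 1 arm would be called.

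**Figure D3:**
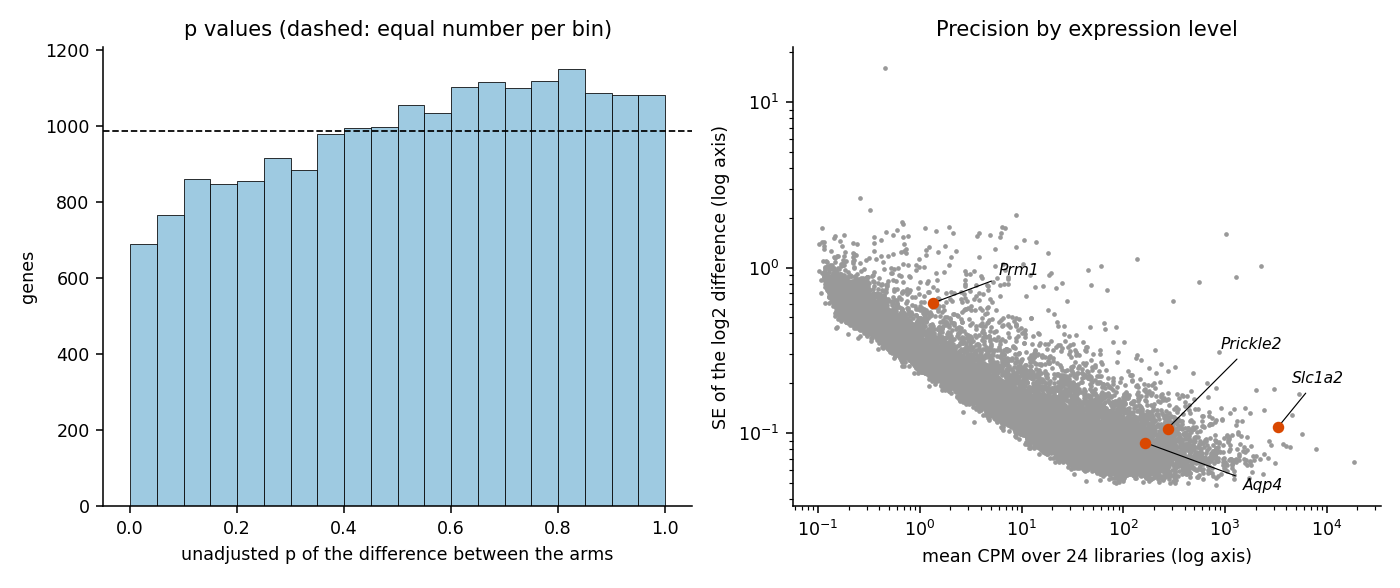
Left, number of genes in 20 equal bins of the unadjusted p of the difference between the arms, with a dashed line at 986.3 genes per bin. Right, standard error of the log2 difference (log axis) against mean CPM over 24 libraries (log axis), with Prm1, Prickle2, Aqp4 and Slc1a2 in orange. The lowest bin holds 691 genes, and errors shrink from a median of 0.505 under 1 CPM to 0.078 at 100 CPM or more.

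The genes after these 4 in order of p had an edgeR adjusted p = 1.00 each, and the values of those with assigned names follow. Mmp14, whose enzyme sits in the cell membrane and cuts extracellular matrix, had a lowest, median and highest value of 15.3, 16.6 and 17.8 CPM in syn Cre-positive libraries and 9.48, 11.5 and 12.6 CPM in syn Cre-negative libraries. The gfap groups had 10.1, 12.6 and 17.5 CPM (Cre-positive) and 10.8, 14.1 and 16.3 CPM (Cre-negative). The syn groups did not overlap and the gfap groups did. Its difference was 0.60 (SE 0.15, 95% interval 0.29 to 0.91). Mertk, a receptor kinase by which astrocytes and microglia engulf debris and synapses, had a median of 36.5 CPM in syn Cre-positive libraries and 45.9 CPM in syn Cre-negative ones. In the gfap arm the medians were 37.6 and 35.5 CPM, and the groups overlapped in both arms. Its difference was −0.44 (SE 0.11, 95% interval −0.67 to −0.22). Its Cre-negative groups differed between the lines as well (syn minus gfap 0.37, adjusted p = 8.4e-04), and the syn Cre-negative group was the one farthest from the rest.

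Among other genes with a higher value in the syn arm, Mcam, a cell adhesion gene of vessel walls, had a difference of 0.45 (SE 0.12). Tst, a mitochondrial sulfurtransferase gene, stood at 0.44 (SE 0.12), and Adamtsl1, a secreted matrix protein gene, at 0.53 (SE 0.15). Tmem125, a membrane protein gene, stood at 0.75 (SE 0.19), with the arms in opposite directions (0.32 in syn and −0.43 in gfap). Among those with a lower value, Myrip, a linker of Rab27-bearing vesicles to myosin, had a difference of −0.25 (SE 0.07). It had almost no change in the gfap arm (0.00, SE 0.05) and −0.25 in the syn arm. Clic5, a chloride intracellular channel family gene, stood at −0.41 (SE 0.12), and Pon2, a paraoxonase gene, at −0.29 (SE 0.09). Ppib, a cyclophilin gene of the endoplasmic reticulum, stood at −0.24 (SE 0.08), Eogt, a glycosyltransferase gene of the same compartment, at −0.31 (SE 0.10), and Ubxn4, a gene of protein quality control there, at −0.19 (SE 0.06).

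Several genes with large fitted differences were rare or rested on few libraries. Dntt, the lymphocyte gene of terminal transferase, had a difference of 1.85 (SE 0.49) from 2 to 17 counts per library. Cdiptos, an antisense RNA gene, stood at −1.13 (SE 0.30) at a mean of 1.21 CPM. Lhx1, a homeobox gene, stood at 2.77 (SE 0.74) and at 2.11 without syn Cre-positive library 5, which had 1.17 CPM where the group median was 0.283 CPM, and at 1.76 without the Ttr-high libraries. Ebf3, a transcription factor gene, had a difference of 1.58 (SE 0.56) with 4.09, 4.79 and 2.54 CPM in syn Cre-positive libraries 2, 5 and 6 and at most 1.10 CPM in the other 21 libraries. These are the 3 Ttr-high libraries of that group, and without the 6 Ttr-high syn libraries the Ebf3 difference was −0.13. Ctxn3, a small membrane protein gene, stood at 1.49 (SE 0.71), at 0.925 without syn Cre-positive library 5 and at 0.185 without the Ttr-high libraries. Gpr149, an orphan receptor gene, went from 0.83 to 0.454 and Rgs22, a G protein regulator gene, from 1.05 to 0.621 without the Ttr-high libraries. Snrnp40, a spliceosome gene, stood at −1.13 (SE 0.46), at −1.74 without the Ttr-high libraries, and at −0.73 without the 4 libraries named as standing apart in other genes (syn Cre-negative 2 and 5, syn Cre-positive 5 and gfap Cre-negative 4). Rpph1, the RNA part of ribonuclease P, had −3.78 (SE 1.75) and −0.75 without syn Cre-negative library 5, which held 34.4 CPM of it and was also the library with high ribosomal RNA. Without the Ttr-high libraries, which leaves library 5 among 3, it stood at −6.75.

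**Figure D4:**
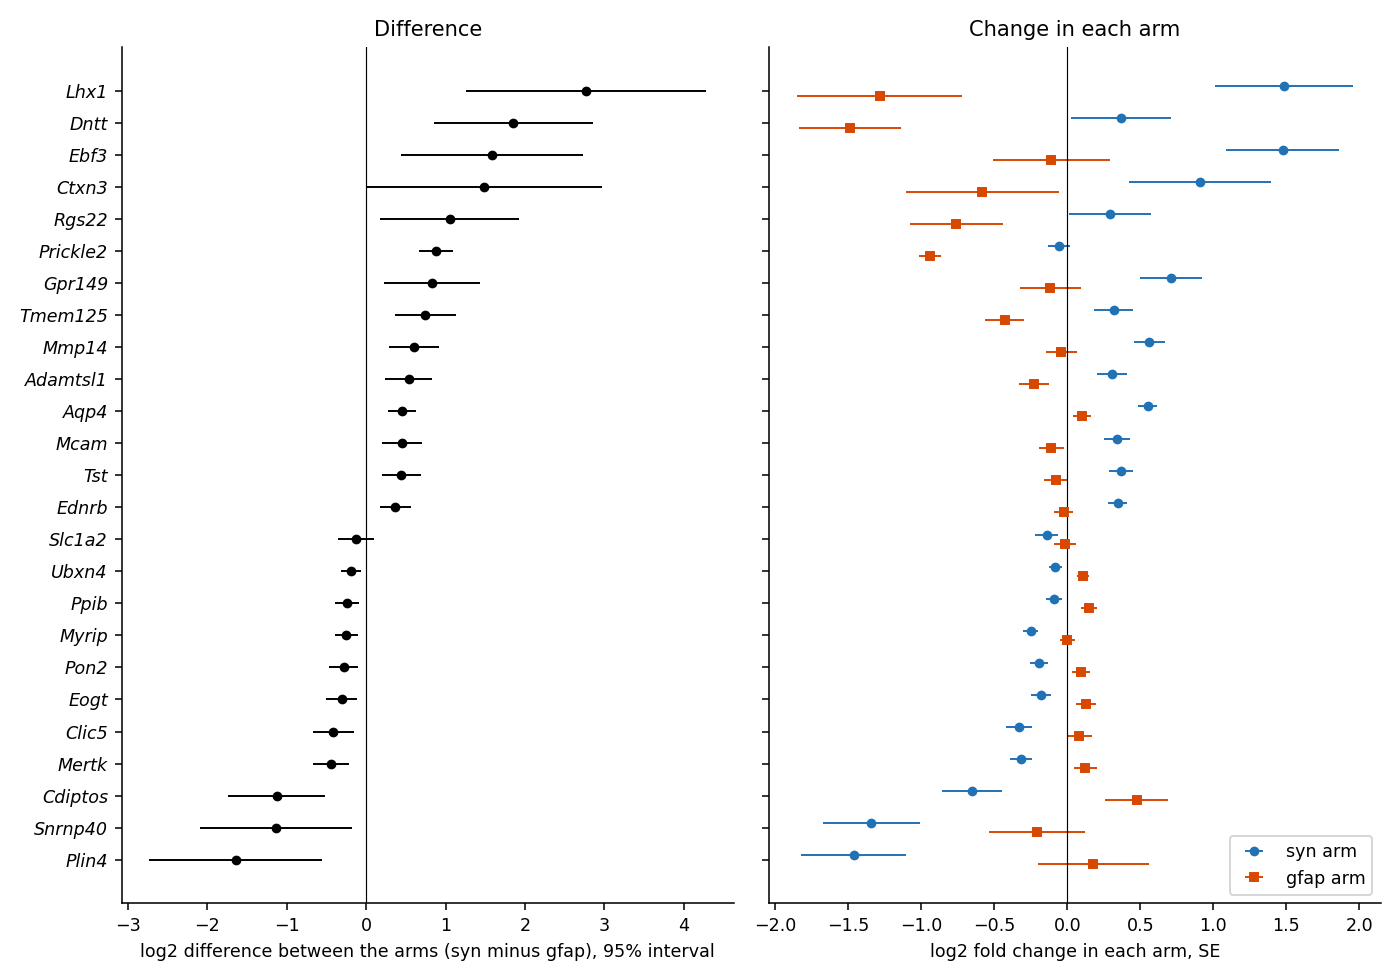
Left, log2 difference between the arms with its 95% interval for 25 of the genes described, ordered by value (Prm1 and Rpph1 lie outside the range and are not drawn). Right, log2 fold change in the syn arm (circles) and in the gfap arm (squares) with SE. Prickle2 is displaced in the gfap arm (−0.94) and Aqp4 in the syn arm (0.55), while Lhx1, Dntt, Ebf3 and Plin4 have wide intervals.

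Mature oligodendrocyte genes, which build and maintain myelin, had mostly positive differences. Of 15 tested, 14 were positive, where 50.3% of all genes were. At an unadjusted p under 0.05, 3 were higher (1.82% of all genes were) and 0 lower (1.68%), and 0 passed over all genes. The median was 0.19, from 0.12 in the syn arm and −0.09 in the gfap arm. Opalin, a membrane protein gene of mature oligodendrocytes, had a lowest, median and highest value of 25.9, 31.1 and 35.8 CPM in syn Cre-positive and 19.3, 26.9 and 32.6 CPM in syn Cre-negative libraries. In the gfap arm it had 15.3, 19.1 and 24.6 CPM in Cre-positive and 18.8, 21.95 and 24.98 CPM in Cre-negative libraries. The groups overlapped in both arms, and the difference was 0.44 (SE 0.17). Gjb1, which encodes the oligodendrocyte gap junction protein connexin 32, had a difference of 0.38 (SE 0.17), which was 0.199 without the Ttr-high libraries. The summed level of the list ran from 5620 to 8666 CPM in the syn libraries and from 3797 to 5617 CPM in the gfap libraries. Without the 6 Ttr-high syn libraries the median was 0.0314. Precursor genes of this lineage had 8 of 10 positive, 0 with an unadjusted p under 0.05 and a median of 0.11, which was 0.0641 without gfap Cre-positive library 3 and 0.0481 without the Ttr-high libraries.

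Genes that glucocorticoid hormone switches on had negative differences in all 16 tested members, where 50.3% of all genes were positive. An unadjusted p under 0.05 was found in 5 of them, beside 1.68% of all genes in that direction, and 0 passed over all genes. The median was −0.26, from −0.23 in the syn arm and −0.00 in the gfap arm. Plin4, a lipid droplet coat gene, had a lowest, median and highest value of 4.25, 6.93 and 23.2 CPM in syn Cre-negative libraries and 2.12, 3.82 and 4.73 CPM in syn Cre-positive ones. In the gfap arm the medians were 2.00 CPM (Cre-positive) and 1.77 CPM (Cre-negative). Its difference was −1.64 (SE 0.52), and −1.17 without syn Cre-negative library 2, the highest. Hif3a, a hypoxia-inducible factor gene, had medians of 3.43 and 8.36 CPM in the syn Cre-positive and Cre-negative libraries, which did not overlap. Its gfap medians were 2.34 CPM (Cre-positive) and 3.21 CPM (Cre-negative), and its difference was −1.05 (SE 0.38). Sult1a1, a sulfotransferase gene, stood at −0.63 (SE 0.21). In the mean log2 level of the list all 6 syn Cre-negative libraries (4.30 to 5.02) were above all 6 syn Cre-positive ones (4.00 to 4.27), while the gfap groups overlapped (4.00 to 4.40 and 3.93 to 4.39). The syn Cre-negative group was the one farthest from the rest, with a group mean of 4.52. The means of the syn Cre-positive, gfap Cre-positive and gfap Cre-negative groups were 4.13, 4.11 and 4.14. The median without syn Cre-negative library 2 was −0.18, and without the Ttr-high libraries −0.41.

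Stress and activity genes had mostly negative differences. Of 17 heat shock and unfolded protein genes, 16 were negative and 5 had an unadjusted p under 0.05, all lower, beside 1.68% of all genes. Their median was −0.21, with −0.32 without the Ttr-high libraries and −0.15 without syn Cre-negative library 1. Sdf2l1 and Pdia4, which help fold proteins in the endoplasmic reticulum, had differences of −0.73 (SE 0.32) and −0.49 (SE 0.23), and Xbp1, a regulator of the unfolded protein response, one of −0.40 (SE 0.17). Without the Ttr-high libraries Sdf2l1 stood at −1.099, Pdia4 at −0.77 and Xbp1 at −0.58. Without syn Cre-negative library 2 Sdf2l1 stood at −0.59, Pdia4 at −0.37 and Xbp1 at −0.30. Of 16 immediate early genes, which neurons switch on within minutes of activity, 15 were negative and 0 had an unadjusted p under 0.05. Fos had a difference of −1.27 (SE 0.79), with 2.34 to 27.0 CPM within the syn Cre-negative group alone. The median of −0.24 was −0.0637 without syn Cre-negative library 2 and −0.38 without gfap Cre-negative library 4. The clock gene Per2 had a difference of −0.33 (SE 0.14), which was −0.21 without syn Cre-negative library 2, and 4 of 17 clock genes were positive. Of 21 genes for cholesterol synthesis and uptake, 17 were negative and 5 had an unadjusted p under 0.05, all lower, beside 1.68% of all genes. Their median was −0.11, and −0.0665 without the Ttr-high libraries. Hmgcs1 and Fdft1, enzymes early in sterol synthesis, had differences of −0.19 (SE 0.07) and −0.21 (SE 0.08), and Stard4, a sterol carrier gene, one of −0.27 (SE 0.11). None of these members passed over all genes (edgeR adjusted p = 1.00 for each named).

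**Figure D5:**
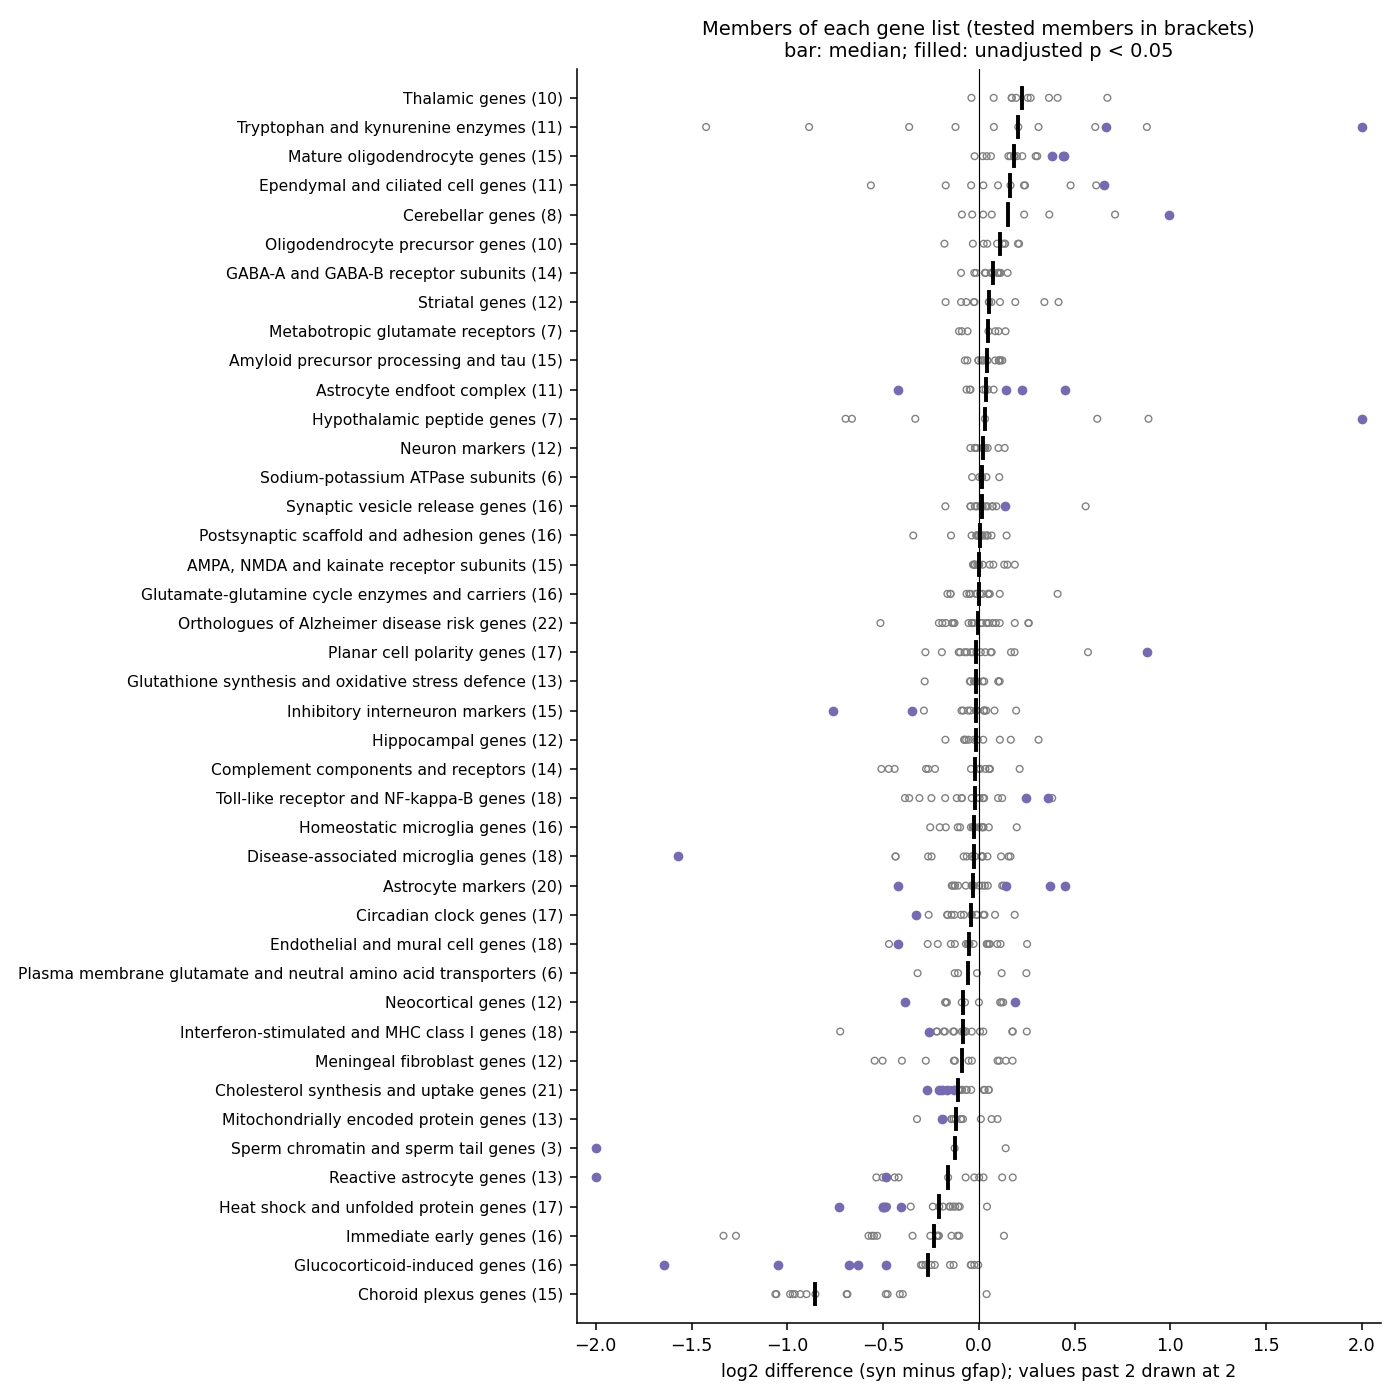
Log2 difference between the arms for each tested member of 42 gene lists, ordered by list median, with the number tested in brackets. Points are genes (filled where the unadjusted p is under 0.05), bars are medians, and values past 2 are drawn at 2. Glucocorticoid-induced genes lie at or below 0 in all 16 members and mature oligodendrocyte genes above 0 in 14 of 15, while glutamate receptor and sodium pump genes lie close to 0.

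Neuronal and synaptic genes had median differences near 0. Of 12 neuron markers, 16 synaptic vesicle release genes and 16 postsynaptic genes, 1 had an unadjusted p under 0.05, the vesicle protein gene Sv2a (0.14, SE 0.06), and the list medians were 0.02, 0.01 and 0.00. Among 15 interneuron markers 2 had an unadjusted p under 0.05 with a lower value in the syn arm, beside 1.68% of all genes. They were Pthlh, a peptide hormone gene (−0.76, SE 0.29), and Nxph1, a neurexin ligand gene (−0.35, SE 0.14). Like all 42 lists, this one was chosen with earlier results of these data known. Its share beside that of all genes is therefore a description of the list and not a test of interneurons. The 22 orthologues of Alzheimer disease risk genes and the 15 genes of amyloid precursor processing and tau had 0 members with an unadjusted p under 0.05 and medians of −0.01 and 0.04.

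Each list of immune genes, and that of tryptophan and kynurenine enzymes, had at most 2 members with an unadjusted p under 0.05. None passed over all genes. The share with such a p among all genes was 3.50%. It was found for 0 of 16 homeostatic microglia genes and 0 of 14 complement genes. Among 18 disease-associated microglia genes it was 1, the cystatin gene Cst7 (−1.57, SE 0.65, mean 0.386 CPM). Cst7 stood at −2.48 without the Ttr-high libraries and at −1.09 without syn Cre-negative library 2. Among 18 interferon and class I genes, 1 had an unadjusted p under 0.05, Stat2, a signal carrier of interferon receptors (−0.26, SE 0.09). Of 18 Toll-like receptor and NF-kappa-B genes it was 2, both higher in the syn arm, the NF-kappa-B subunit gene Relb (0.36, SE 0.14; 0.22 without the Ttr-high libraries) and Tlr3, a sensor of double-stranded RNA (0.24, SE 0.10). Of 11 tryptophan and kynurenine enzyme genes it was 2, also both higher. Tph1, a serotonin synthesis gene, had 2.27 (SE 0.74) and 1.14 without syn Cre-positive library 5, which is Ttr-high and held 2.47 CPM where the group median was 0.325 CPM. Afmid, a kynurenine formamidase gene, had 0.67 (SE 0.31) at a mean of 0.528 CPM.

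Markers of brain regions and of tissue around the brain followed single libraries in several cases. Of 15 choroid plexus genes 14 were negative with a median of −0.85, but the median SE was 1.46 and 0 had an unadjusted p under 0.05. The median was −0.45 and −0.42 without syn Cre-negative libraries 3 and 4, −1.33 without syn Cre-positive library 6 and −0.28 without the Ttr-high libraries. Of 18 vessel genes 1 had an unadjusted p under 0.05, the endothelial gene Ly6c1 (−0.42, SE 0.16), and of 12 meningeal genes 0 passed an unadjusted p under 0.05. Of 10 thalamic genes 9 were positive with a median of 0.22, which was −0.0213 without syn Cre-positive library 5. In that library Tcf7l2, a transcription factor gene of thalamic neurons, was at 15.5 CPM where the group median was 5.03 CPM. Neocortical genes held members in both directions, Tle4 of deep layers (0.19, SE 0.07; 0.30 without the Ttr-high libraries) and Lamp5 of upper layers (−0.38, SE 0.18). Of 13 mitochondrially encoded protein genes 10 were negative, and mt-Cytb, a subunit of respiratory complex III, had a difference of −0.19 (SE 0.08), which was −0.0943 without the Ttr-high libraries. Which part of these differences goes with the amount of each tissue in a sample was not tested.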

How the data were processed

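Whole-number counts per gene were deposited by the authors for 24 mouse brain libraries. The submitters' processing notes name HISAT2, HTSeq 0.6.0, DESeq2 1.6.3 and mm10. No source used here states the strand setting or the annotation release, so overlapping and antisense genes cannot be separated with certainty. Symbols came from GENCODE M21 for 52403 of 52636 identifiers (99.6%), and promoter windows from RefSeq (GRCm38.p6). Lines that name no gene were left out of totals and tests, among them reads outside genes (4.47 to 11.1%), ambiguous reads (3.19 to 7.46%) and reads with several alignments (13.7 to 15.6%).

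After filterByExpr and TMM scaling, 1 model of the 4 groups (20 residual degrees of freedom) was fitted with edgeR 4.0.16 in R 4.3.3, and the contrast was tested by the robust quasi-likelihood F test. Called means a Benjamini-Hochberg adjusted p under 0.05 over 19726 genes. CPM use TMM-scaled sizes. DESeq2 1.42.0, limma-voom 3.58.1, other scalings, filters and covariates, each line alone, and fits leaving out libraries were alternatives, of which 2 sets of libraries left out together were chosen after seeing the data. The limma-voom fit gave each library a quality weight, so that libraries far from their group counted less. Replicates are mice, numbered in accession order. No library was a copy of another of its group: the mean chi-square per gene of the 60 within-group pairs was 6.65 to 134.2, where counting noise gives about 1.

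Named genes are Slc1a2, genes called by edgeR, DESeq2 or limma-voom, the 10 per direction with the smallest p, the 5 per direction with the largest difference at an unadjusted p under 0.05 and a mean of at least 1 CPM, up to 3 members per list by p, the Slc1 genes and tested neighbours. Ribosomal RNA CT010467.1, 4930594M22Rik, Slc17a6, Prm2, Tnp1, Tnp2, the Prm1-overlapping Gm10343, and the Y-linked and X-linked genes were chosen after their values were seen. The comparison, the 42 lists (574 genes, 548 tested) and the rule were chosen with earlier results of these data known. The values of 1 gene that the naming rule covers are not reported here.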

Additional observations from a re-analysis of the deposited data

Results flagged for a closer look

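Prm1 (log2 difference −5.04) and Prickle2 (0.88) are listed because the test of the difference between the arms passed for them. The gfap Cre-positive group differs from its controls in Cre and in the EAAT2 allele at once, and these cannot be told apart.

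In 13 of 124 groups of 6 libraries (10.5%), the highest or lowest library lay farther from its nearest neighbour than the 95% limit of Dixon's test allows. That limit flags about 1 in 20 groups of independent, normally distributed values. These groups share libraries, and their genes were mostly picked by p or by size of difference, so 1 in 20 is not their expected rate. Syn Cre-negative library 5 stood apart in Rpph1 (34.4 CPM), in reads outside genes (11.1%) and in ambiguous reads (7.46%). Syn Cre-positive library 5 was high in Lhx1 (1.17 CPM) and Gpr149 (2.12 CPM). Slc1a2 was low in gfap Cre-negative library 4 (2494 CPM) and in syn Cre-positive library 6 (2616 CPM). Gfap Cre-positive library 3 was high in Gpr149 (1.59 CPM) and Ctxn3 (1.97 CPM). The remaining values were Ednrb in syn Cre-positive library 1 (50.2 CPM, low), Clic5 in gfap Cre-positive library 6 (7.68 CPM, low), Ebf3 in gfap Cre-positive library 1 (0.955 CPM, high) and Rpph1 in gfap Cre-negative library 4 (1.498 CPM, high).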

How the results depend on the processing

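The number of genes called stayed at 2 or 3 over 35 alternatives, from 2 to 3 when each library was left out in turn. Prm1 and Prickle2 were called in all 35, and 28 called no other gene. Aqp4 was the third in 7: without a filter, with DESeq2, with limma-voom, with each line fitted alone, without syn Cre-positive library 5, without gfap Cre-negative library 4 and without 4 libraries that stand apart (a set chosen after seeing the data). The fit of each line alone took its p from a normal distribution. That takes no account of the degrees of freedom and makes p smaller. The largest adjusted p of Prm1 and of Prickle2 was 0.0426, without the 6 Ttr-high syn libraries, where each syn group has 3 libraries. Of 3175 single-gene values under alternatives, 14 changed sign. Without the 6 Ttr-high libraries Ebf3 was −0.13 and Grin1, an NMDA receptor gene, −0.0136. Slc1a1, close to 0, was 0.0002815 with RLE factors, 0.0002471 with upper-quartile factors, 0.0006716 with DESeq2, 0.0126 without the Ttr-high libraries, 0.0158 without the 4 libraries that stand apart, and −0.0243 to 0.0158 when each library was left out. Dexi ranged from −0.135 to 0.0005258 when each library was left out. The cause of these changes was not tested. On the linear CPM scale 156 of 157 named genes kept their sign, Tssk6 being the exception. Depth limits the rare genes: under 1 CPM, 18.3% of 95% intervals lay within 1 log2 unit of 0. No paired analysis was possible because replicate numbers follow accession order and no label says that mice of different groups share a litter, batch or day.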

Other observations

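Y-linked genes were higher in syn Cre-positive library 3 than in any other library. Ddx3y was at 141.5 CPM there and at 61.1 to 79.6 CPM in the other 23, Uty at 34.9 against 15.8 to 21.7 CPM, Kdm5d at 76.2 against 22.3 to 40.9 CPM, and Eif2s3y at 144.8 against 33.0 to 76.6 CPM. The ratios to the median of the other libraries were 2.03, 1.99, 2.41 and 2.40. Their X-linked relatives Kdm6a and Ddx3x were at 1.10 and 0.923 of that median, and Xist was at most 0.303 CPM in all 24 libraries. Prm1, Prickle2 and Aqp4 gave the same calls without this library as with it.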
